A study of Mus musculus with 43 samples.

Results

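Regenerating and fetal-like gut epithelium expresses a set of genes that resting adult crypts hold at low levels, and 9 of them are described here in mouse colon organoids and colon fibroblasts treated with anticancer drugs. Ctgf and Cyr61 encode secreted matricellular proteins of the CCN family and are textbook targets of the transcriptional coactivator YAP. Clu (clusterin, a secreted chaperone), Ly6a (a GPI-anchored surface protein also known as Sca-1), Anxa1 (annexin A1, a phospholipid-binding protein), Sprr1a (a cornified envelope precursor), Krt7 (a type II keratin), Msln (mesothelin, a GPI-anchored surface protein) and S100a6 (a calcium-binding protein) are markers of the repairing or fetal-like epithelium. The 9 genes were taken by their symbols from tables of 52636 genes, and each symbol matched 1 gene.

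The organoids came from 2-month-old mice heterozygous for a villin-driven, tamoxifen-inducible Cre (VilCreERT2), all injected with tamoxifen, with wild-type Apc (colonoids, lines M41, M40 and M1) or floxed Apc (tumoroids, lines F11, M3 and M14). Each line came from 1 mouse, a female for F11 and males for the others, and was cultured for 6 days with vehicle (DMSO), 4 or 8 µM regorafenib, a multikinase inhibitor, or 1 µM 5-fluorouracil (5-FU), which blocks DNA synthesis, giving 3 libraries in each of 8 groups. All cultures grew with EGF, Noggin, R-spondin and Wnt3a-conditioned medium and received a ROCK inhibitor after replating, and the recombined cells are those in which villin is active. Colon fibroblasts of wild-type C57BL/6 mice (lines M3, M3(2), M1(2) and M11) received vehicle, 4 µM regorafenib, 1 µM autogramin-2 (an autophagy inhibitor) or both for 7 days, and all lines except M11 received 10 µM regorafenib. Values are read counts per gene scaled to 20000000 per library (CP20M), which are not divided by gene length.

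The organoid libraries held 4371813 to 22370005 reads, apart from colonoid line M41 at 4 µM with 512592 reads, where 1 read is worth 39.0 CP20M. In that library the top 10 genes took 23.9% of the reads, beside 4.46% to 7.33% in the other organoid libraries. The bearing of this on its values was not tested. The fibroblast libraries held 7949965 to 12825919 reads. Summed epithelial markers were between 69727 and 178168 CP20M in organoids and at most 96 in fibroblasts, and fibroblast markers summed to at most 123 in organoids. Apc read counts lay between 1542 and 4944 CP20M in colonoids and between 3813 and 6032 in tumoroids, so the loss of a floxed exon is not visible in this gene-wide count. Axin2, a Wnt target, was 1.93 higher in tumoroids than colonoids in vehicle on the log2 scale (SE 0.43, adjusted p = 0.0243). In bulk RNA, fewer cells of a type and less RNA per cell cannot be told apart.

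YAP and its relative TAZ (Wwtr1) bind DNA through TEAD factors, and the kinases of the Hippo pathway keep them out of the nucleus. In the gut, injury, matrix contact and stretch release YAP, and its activity goes with the repairing state in which crypt stem cell genes such as Lgr5 and Ascl2 are low. Many genes of this state also carry sites for AP-1, the Fos and Jun factors that act downstream of growth factor signalling.

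Upstream windows of 250 bases from RefSeq on GRCm38.p6 matched 5 of the 9 genes (Anxa1, Sprr1a, Krt7, Cyr61 and S100a6), and those of Cyr61 and Sprr1a are shown because Cyr61 is a YAP target and Sprr1a changed in opposite directions with regorafenib and 5-FU. They were searched on both strands for the TEAD letters GGAATG or CATTCC and the AP-1 letters TGACTCA or TGAGTCA, and the capitals mark the matches. Cyr61 (minus strand, chr3:145649986-145650235) holds CATTCC at -103 to -98 from the gene's start:
Cyr61: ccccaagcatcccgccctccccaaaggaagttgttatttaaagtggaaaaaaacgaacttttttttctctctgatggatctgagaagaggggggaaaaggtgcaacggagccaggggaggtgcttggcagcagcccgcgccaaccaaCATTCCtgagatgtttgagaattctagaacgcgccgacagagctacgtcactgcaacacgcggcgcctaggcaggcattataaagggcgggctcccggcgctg
Sprr1a (minus strand, chr3:92485882-92486131) holds TGAGTCA at -146 to -140 and again at -116 to -110:
Sprr1a: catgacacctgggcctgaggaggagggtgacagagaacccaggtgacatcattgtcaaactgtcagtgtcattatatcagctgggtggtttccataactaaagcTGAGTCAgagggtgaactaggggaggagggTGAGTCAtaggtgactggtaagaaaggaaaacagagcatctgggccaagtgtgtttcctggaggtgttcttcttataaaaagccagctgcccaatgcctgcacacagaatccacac
Anxa1 holds CATTCC at -236 to -231, and the windows of Krt7 and S100a6 hold neither motif. The TEAD letters are in 12.6% and the AP-1 letters in 4.46% of all 32851 windows of this length, so a match is a description of the sequence and not a binding site.

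In RPKM (reads per kilobase of exon, scaled to library size), on which the levels of genes can be compared, Ly6a had the highest level of the 9 in vehicle colonoids (757 ± 149, SD, n = 3), within its spread of S100a6 (594 ± 220). Clu (424 ± 130) and S100a6 also overlapped within 1 SD, and Krt7 (278 ± 33.8) and Anxa1 (274 ± 36.4) had like levels. Msln (166 ± 38.9) and Ctgf (152 ± 41.3) followed, and Sprr1a (29.0 ± 23.8) and Cyr61 (21.6 ± 1.54) were the lowest. The order differed in vehicle tumoroids, where Ctgf (448 ± 269) had the highest mean after Ly6a (697 ± 111) and Sprr1a (5.54 ± 3.85) the lowest. The place of Ctgf rested on line M3, and without it Ctgf (296 ± 77.5, n = 2) lay below S100a6 (328 ± 74.6) and within the spread of S100a6, Clu and Krt7. Among these 9 genes the repairing-state markers were thus present in untreated organoids of both genotypes, with Sprr1a and Cyr61 far below the rest.

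**Figure D1:**
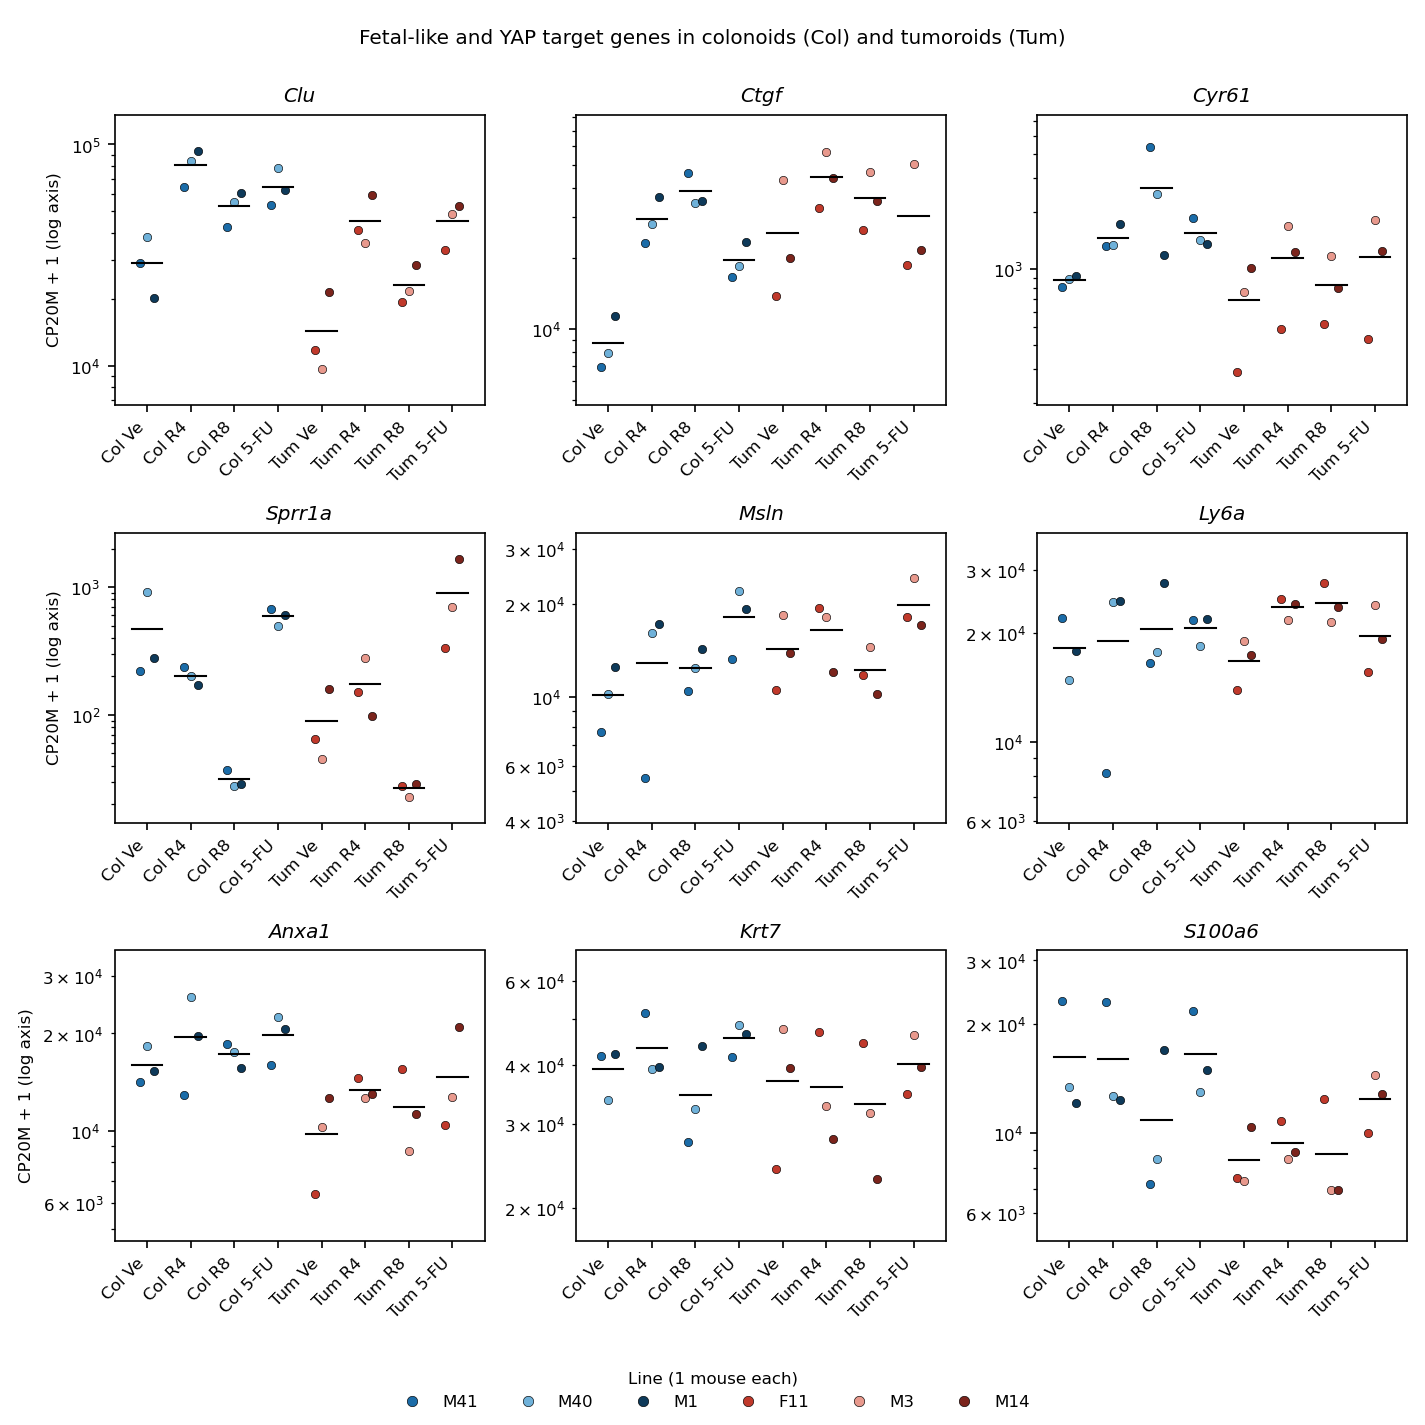
Level of each of the 9 genes in the 24 organoid libraries as CP20M + 1 on a log axis, by culture (Col, colonoids; Tum, tumoroids) and treatment (Ve, vehicle; R4 and R8, regorafenib at 4 and 8 µM); points are lines and bars are means of 3. Clu lies above vehicle at 4 µM and with 5-FU in both cultures, and Sprr1a lies between 22 and 36 CP20M in the 6 libraries at 8 µM.

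To ask how regorafenib moved these genes, the mean of 4 and 8 µM was compared with vehicle across both genotypes, and a gene was called at an adjusted p under 0.05 and a change of at least 1.5-fold. Clu and Ctgf rose, Sprr1a fell, and the other 6 genes were not called. This is 3 of 9 genes, beside 16.9% of the 11562 genes tested, and all 9 had passed the filter on low values. The 2 that rose stand beside 7.65% of all genes called higher, and the 1 that fell beside 9.2% called lower. In colonoids the same 3 genes were called, beside 14.6% of all genes (5.67% higher and 8.9% lower), and in tumoroids Clu alone was, beside 7.78% (4.51% higher and 3.27% lower). The median change of the 9 was 0.28 on the log2 scale, beside -0.11 for all genes tested. Of all genes, 13.6% were higher and 20.1% lower than in vehicle in 6 of 6 lines. The libraries at 4 and 8 µM lay above vehicle without overlap for 855 and 2232 of the 11562 genes in colonoids and 1601 and 1869 in tumoroids, and at 8 µM below it for 2681 and 1986.

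In colonoids, Clu read 29040, 38189 and 20258 CP20M in vehicle (lines M41, M40 and M1), 63949, 84241 and 93807 at 4 µM, and 42222, 55111 and 60598 at 8 µM. In tumoroids it read 11746, 9691 and 21503 in vehicle (F11, M3 and M14), 41270, 35947 and 58850 at 4 µM, and 19405, 21766 and 28516 at 8 µM. All 6 lines were higher with either dose than in their own vehicle, and the groups overlapped only between vehicle and 8 µM tumoroids. Clu rose 2.32-fold (log2 1.22, SE 0.18, adjusted p = 7.25e-05), by 1.19 in colonoids (adjusted p = 0.0038) and by 1.24 in tumoroids (adjusted p = 0.00548). The difference between the genotypes' responses was 0.05 with a 95% interval of -0.71 to 0.82, and leaving out colonoid line M1 or tumoroid line F11 or M3 ended the call in that genotype.

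Clu was lower at 8 than at 4 µM in 6 of 6 lines, as were 6.06% of all genes. It was lower without overlap in either culture, as were 5.53% of all genes in colonoids and 6.25% in tumoroids. The change was -0.78 (SE 0.21, adjusted p = 0.0731), which did not pass, and it was called with line as a block (adjusted p = 0.00954) and without the M41 library of few reads (-0.86, adjusted p = 0.0454). Against vehicle, Clu rose by 1.61 at 4 µM (adjusted p = 5.81e-05) and by 0.82 at 8 µM (adjusted p = 0.00678), in comparisons added after the values were seen.

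Ctgf read 6868, 7905 and 11379 CP20M in vehicle colonoids, 23254, 28045 and 36695 at 4 µM, and 46269, 34334 and 35180 at 8 µM. Its vehicle tumoroid values were already 13787, 43047 and 20056, and they were 32783, 56787 and 43848 at 4 µM and 26316, 46672 and 35240 at 8 µM. Vehicle and regorafenib did not overlap in colonoids and did in tumoroids, where line M3 was the highest in every treatment. Over both genotypes Ctgf rose 2.58-fold (log2 1.37, SE 0.23, adjusted p = 0.000254), in 6 of 6 lines.

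In colonoids Ctgf rose by 1.96 (SE 0.33, adjusted p = 0.000531). In tumoroids the change was 0.77 (SE 0.33, adjusted p = 0.156), which was called with line as a block (adjusted p = 0.00899) and without line M3 (1.03, adjusted p = 0.0435). The response in tumoroids minus that in colonoids was -1.19 (95% interval -2.17 to -0.21, adjusted p = 0.997). The gene Gm15270 is annotated on the opposite strand across Ctgf, and whether reads were counted by strand is not stated.

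Cyr61, the closest relative of Ctgf in this set, read 802, 893 and 921 CP20M in vehicle colonoids, 1327, 1347 and 1718 at 4 µM, and 4350, 2475 and 1185 at 8 µM. Its vehicle tumoroid values were 288, 755 and 1018, followed by 487, 1692 and 1234 at 4 µM and 517, 1166 and 797 at 8 µM. Colonoid groups did not overlap with vehicle at either dose, while tumoroid groups did, with line F11 lowest throughout. Across the genotypes Cyr61 changed by 0.80 (SE 0.33, adjusted p = 0.0728), which did not pass. It was called with line as a block (adjusted p = 0.00454) and by edgeR on whole reads (0.90, adjusted p = 0.045), and in colonoids alone it was 1.07 (adjusted p = 0.117, and 0.0101 with the block). Without tumoroid line F11 Cyr61 was called over both genotypes (adjusted p = 0.0325) and in colonoids (adjusted p = 0.0215).

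Sprr1a, whose protein is cross-linked into the cornified envelope of stratified epithelia, went the other way. It read 219, 909 and 276 CP20M in vehicle colonoids, 235, 199 and 172 at 4 µM, and 36, 27 and 28 at 8 µM. In tumoroids the values were 64, 44 and 160 in vehicle, 150, 278 and 97 at 4 µM, and 27, 22 and 28 at 8 µM. The 8 µM libraries lay below vehicle and below 4 µM in both cultures without overlap, and rested on 6 to 22 reads each, as did the 6 reads of line M41 at 4 µM. Of all genes, 5.53% in colonoids and 6.25% in tumoroids lay lower at 8 than at 4 µM without overlap.

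Over both doses and genotypes Sprr1a fell by 1.03 (SE 0.32, adjusted p = 0.0191), and this mean fall came with the higher dose. At 4 µM the mean change over both genotypes was -0.00017 (adjusted p = 1.0), from lines that went both ways. At that dose 1 of 3 colonoid lines (changes of -2.08 to 0.09) and 2 of 3 tumoroid lines (-0.62 to 2.22) were higher than their vehicle. At 8 µM the mean change was -2.06 (adjusted p = 0.000397), and between the doses it was also -2.06 (SE 0.37, adjusted p = 0.0145). Sprr1a was the 1 gene of the 9 called between the doses, beside 0.848% of all genes (0.415% called lower). Over both doses, colonoids gave a fall of 1.94 (adjusted p = 0.00555) and tumoroids a change of -0.12 (95% interval -1.06 to 0.81), and the difference of 1.82 did not pass by limma (adjusted p = 0.997). The tumoroid value is a mean of unlike doses, and at 8 µM Sprr1a fell in both genotypes. The changes of single lines at 8 µM were -4.30 to -2.09 in colonoids and -1.91 to -0.61 in tumoroids. Sprr1a's call over both genotypes was lost without colonoid line M40 or tumoroid line M14, that in colonoids without M40, and that between doses without M40 or tumoroid line M3. With a pseudocount of 100 in place of 20, Sprr1a's calls over both genotypes (adjusted p = 0.0523), between doses (0.0562) and between genotypes in vehicle (0.0658) were lost.

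The remaining 5 genes were not called with regorafenib in either genotype. The 95% intervals of their changes over both genotypes were -0.08 to 0.66 for Anxa1, -0.12 to 0.68 for Ly6a, -0.31 to 0.57 for Msln, -0.40 to 0.28 for Krt7 and -0.54 to 0.31 for S100a6, so that none held a change of 1 on the log2 scale. Ly6a, a marker of fetal-like intestinal epithelium, was not called in tumoroids either. It read 13884 to 19110 CP20M in vehicle tumoroids, 21807 to 24872 at 4 µM and 21577 to 27561 at 8 µM, without overlap, as in 1601 and 1869 of the 11562 genes at these doses, for a change of 0.52 (SE 0.27, adjusted p = 0.259). In colonoids the vehicle range of Ly6a, 14840 to 22014, lay inside the 4 µM range of 8194 to 24571, whose lowest value was the M41 library of few reads.

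**Figure D2:**
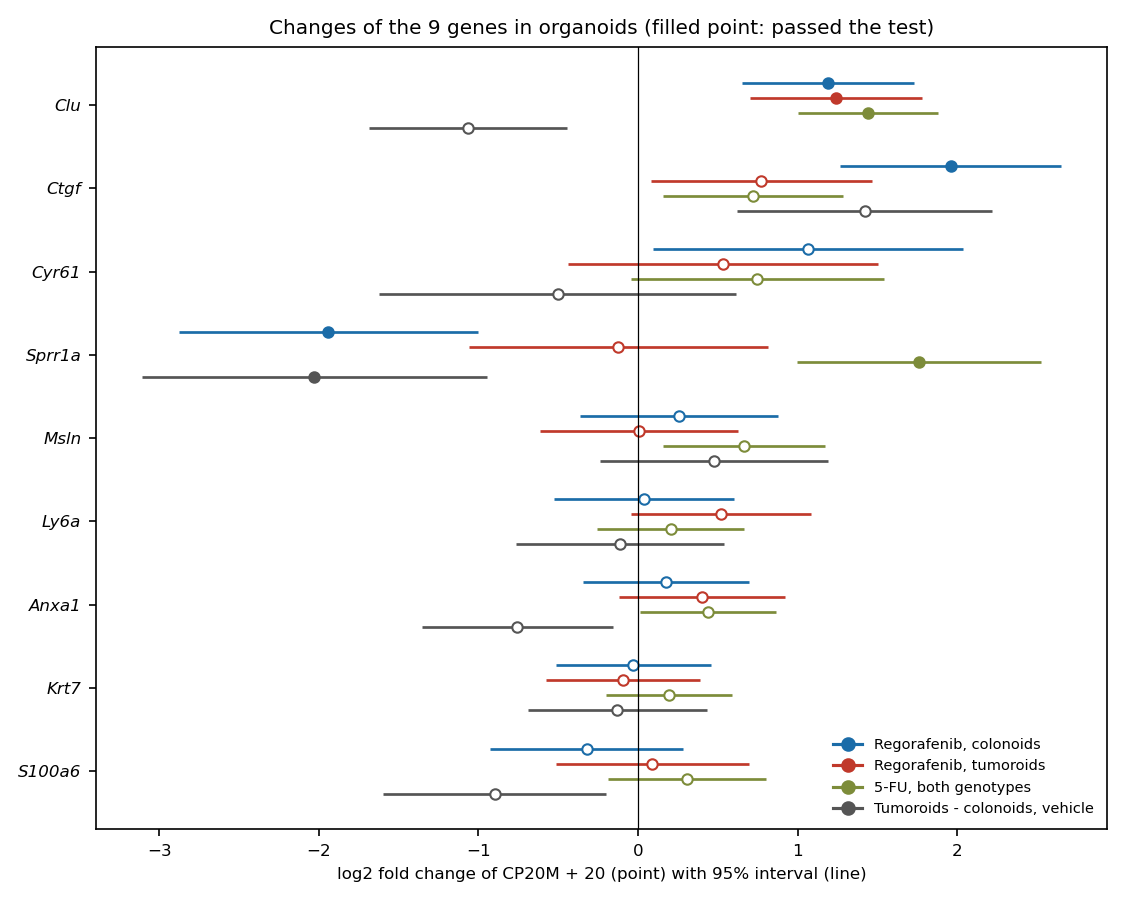
Log2 fold change of CP20M + 20 for the 9 genes (points) with 95% intervals (lines) in 4 comparisons, filled where the gene was called. The interval of Clu lies above 0 for regorafenib in both genotypes and for 5-FU, while Sprr1a is below 0 for regorafenib in colonoids and above 0 for 5-FU.

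The genotypes were compared in all regorafenib responses by the difference of their changes. No gene of the 9, and 0% of the 11562 tested, passed this test by limma at an adjusted p under 0.05. At an unadjusted p under 0.05 there were 2 of the 9 (Sprr1a and Ctgf) and 411 of all genes (3.55%), and edgeR called 0. The rise of Ctgf in colonoids is therefore not shown to differ from its change in tumoroids.

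The second drug, 5-FU, allowed the same genes to be followed under a treatment with another target. Clu and Sprr1a rose with 5-FU, 2 of 9 genes beside 2.35% of all genes tested (1.53% called higher). All 9 fitted changes were above 0, with a median of 0.66 beside -0.01 for all genes, and 4 genes besides Clu were higher than in vehicle in 6 of 6 lines (Ctgf, Cyr61, Msln and Anxa1), as were 14.2% of all genes tested.

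With 5-FU Clu read 53517, 78010 and 62099 CP20M in colonoids and 33343, 48513 and 52949 in tumoroids, above every vehicle value of the same culture, as were 9.05% (colonoids) and 8.65% (tumoroids) of all genes. The rise was 2.72-fold (log2 1.44, SE 0.21, adjusted p = 0.00123). Sprr1a read 673, 498 and 606 in colonoids, which overlapped with vehicle because of the 909 of line M40, and 332, 702 and 1659 in tumoroids, which did not overlap. It rose 3.39-fold (log2 1.76, SE 0.37, adjusted p = 0.0146), by 0.59 in colonoids (adjusted p = 1.0) and by 2.93 in tumoroids (adjusted p = 0.0245) in comparisons added after the values were seen, and the call over both genotypes was lost without colonoid line M41 or M1 or tumoroid line M3.

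Ctgf with 5-FU read 16716, 18504 and 23603 CP20M in colonoids and 18732, 50257 and 21696 in tumoroids, and Msln read 13288, 22007 and 19170 in colonoids and 18074, 24181 and 17089 in tumoroids. Colonoids lay above vehicle without overlap for both genes, as for 9.05% of all genes, and tumoroids overlapped with vehicle for both. Their changes of 0.72 and 0.66 did not pass (adjusted p = 0.171 and 0.161), and both were called with line as a block (adjusted p = 0.00788 and 0.0186). Msln was also called without the M41 library of few reads (adjusted p = 0.0223) and without colonoid line M41 (adjusted p = 0.0442).

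Set against 5-FU directly, regorafenib gave lower Sprr1a in the 9 genes, a difference of -2.79 (SE 0.32, adjusted p = 2.96e-05), and this was the 1 called gene of 9 beside 6.77% of all (2.53% higher and 4.25% lower). The 8 µM values of 22 to 36 CP20M lay below the 5-FU values of 332 to 1659 in both cultures. Clu did not differ beyond its error (-0.23, 95% interval -0.61 to 0.16), and nor did Cyr61 (0.05, -0.63 to 0.74). Ctgf was higher with regorafenib by 0.64 (adjusted p = 0.0836), which was called with line as a block (adjusted p = 0.00278), with TMM factors (adjusted p = 0.0476) and without the library of few reads (adjusted p = 0.0491). Both drugs were compared with the same vehicle libraries, so their 2 sets of changes are not independent.

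In vehicle, Sprr1a was the 1 gene of the 9 called between genotypes, beside 2.06% of all genes (0.969% higher and 1.09% lower). It was -2.03 in tumoroids relative to colonoids (SE 0.52, adjusted p = 0.0471), with 44 to 160 CP20M against 219 to 909, and the call was lost without colonoid line M41, M40 or M1 or tumoroid line F11 or M3. Ctgf was 1.42 higher (adjusted p = 0.0576) and did not overlap, with 13787 the lowest tumoroid and 11379 the highest colonoid value. Anxa1 (-0.75, adjusted p = 0.182) and S100a6 (-0.90, adjusted p = 0.168) were lower in tumoroids without overlap and were not called. Of all genes, 15.9% were higher and 10.7% lower in tumoroids without overlap. Clu was 1.06 lower in tumoroids (-1.06, adjusted p = 0.0649), with an overlap between the 21503 of tumoroid line M14 and the 20258 of colonoid line M1. Without the M41 library of few reads, which holds no vehicle value but adds to the estimate of spread, Ctgf (adjusted p = 0.0289) and Clu (adjusted p = 0.0315) were both called. Ctgf was also called without F11 (adjusted p = 0.0294), and Clu without M1 (adjusted p = 0.0467) or M14 (adjusted p = 0.0384).

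The RNA of 19 of 20 listed YAP pathway components was tested in organoids, and RNA levels do not show whether YAP itself was active. With regorafenib 2 rose and 1 fell, beside the 7.65% higher and 9.2% lower of all genes (16.9% together), so that the share called was near that of all genes. The median was 0.01 beside -0.11 for all genes. Amotl1, an angiomotin-like protein that binds YAP, rose from 703 to 907 CP20M in vehicle colonoids to 1756 to 2688 at 4 µM, and from 1252 to 3219 in vehicle tumoroids to 5167 to 6615, without overlap (1.41, SE 0.17, adjusted p = 8.62e-06). Tead2 rose by 1.55 (SE 0.20, adjusted p = 1.86e-05), and its relative Tead4, which also carries YAP on DNA, fell by 1.17 (SE 0.17, adjusted p = 6.17e-05). The coactivators themselves were not called, with Yap1 at 0.04 (95% interval -0.16 to 0.24) and Wwtr1 at 0.25 (-0.06 to 0.55).

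Of 20 other listed YAP targets, 16 were tested with regorafenib, and 3 rose and none fell, beside 7.65% of all genes called higher and 9.2% lower, with a median of 0.41. Igfbp3, an IGF-binding protein, rose by 1.98 (SE 0.35, adjusted p = 0.000336), from 200 to 371 CP20M in vehicle colonoids to 1274 to 2204 at 4 µM and 348 to 827 at 8 µM. Like Clu, it was lower at the higher dose, though the dose difference was not called. Ptpn14, a phosphatase that binds YAP, rose by 0.75 (adjusted p = 0.00268), and Myof (myoferlin, a membrane repair protein) by 0.61 (adjusted p = 0.0249).

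Among 18 of 19 other fetal and regenerative genes tested, 5 rose and 2 fell with regorafenib, beside 7.65% and 9.2% of all genes, and the median of -0.25 was below that of all genes. Anxa5, an annexin like Anxa1, rose by 1.20 (SE 0.16, adjusted p = 2.01e-05), Ly6e, of the same family as Ly6a, by 0.65 (adjusted p = 0.000298), and Basp1 by 1.37 (adjusted p = 0.000636). Gja1 (higher) and Emp1 and Il1rn (lower) were also called, and are named after their values were seen. The list therefore moved in both directions.

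Of the crypt stem cell genes, 13 of 14 were tested, and 3 fell and 1 rose with regorafenib, beside 9.2% and 7.65% of all genes. Ascl2, a transcription factor of these cells, fell by 2.04 (SE 0.32, adjusted p = 0.000116). In colonoids it read 62 to 129 CP20M in vehicle, 0 to 11 at 4 µM and 3 to 6 at 8 µM. All of these colonoid values lay below the filter level of 200 CP20M, so Ascl2 passed the filter through other libraries. Cdca7 fell by 1.29 (adjusted p = 0.00168) and Lgr5, the R-spondin receptor, by 1.26 (adjusted p = 0.0489), while Mex3a, an RNA-binding protein of slowly cycling cells, rose by 1.26 (adjusted p = 0.000184). With 5-FU, Mex3a rose by 0.89 (adjusted p = 0.0469) and no gene of this list fell, beside 1.53% of all genes called higher and 0.822% lower.

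Relatives of the 9 genes by family numbered 12, of which 8 were tested. Wisp1, another CCN gene, rose with regorafenib by 2.34 (SE 0.34, adjusted p = 5.59e-05), and it was also called between the doses (adjusted p = 0.0152). In colonoids it read 18 to 27 CP20M in vehicle, 40 to 170 at 4 µM and 508 to 1160 at 8 µM. The vehicle and 4 µM values of Wisp1 in colonoids lay below the filter level of 200 CP20M, and those at 8 µM above it. At 4 µM, 1 read of colonoid line M41 is worth 39.0 CP20M, so the value of 40 may rest on 1 read. S100a4, which neighbours S100a6 in the S100 family, fell by 1.15 (adjusted p = 0.0156). With 5-FU, Wisp1 rose by 1.80 (adjusted p = 0.0177). Amotl1 (1.15, adjusted p = 0.00439), Tead2 (1.19, adjusted p = 0.0108) and Ptpn14 (0.75, adjusted p = 0.0426) rose as well. None of the listed genes was called lower with 5-FU, beside 0.822% of all genes (1.53% called higher). The absence of falls is thus near the share of all genes.

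**Figure D3:**
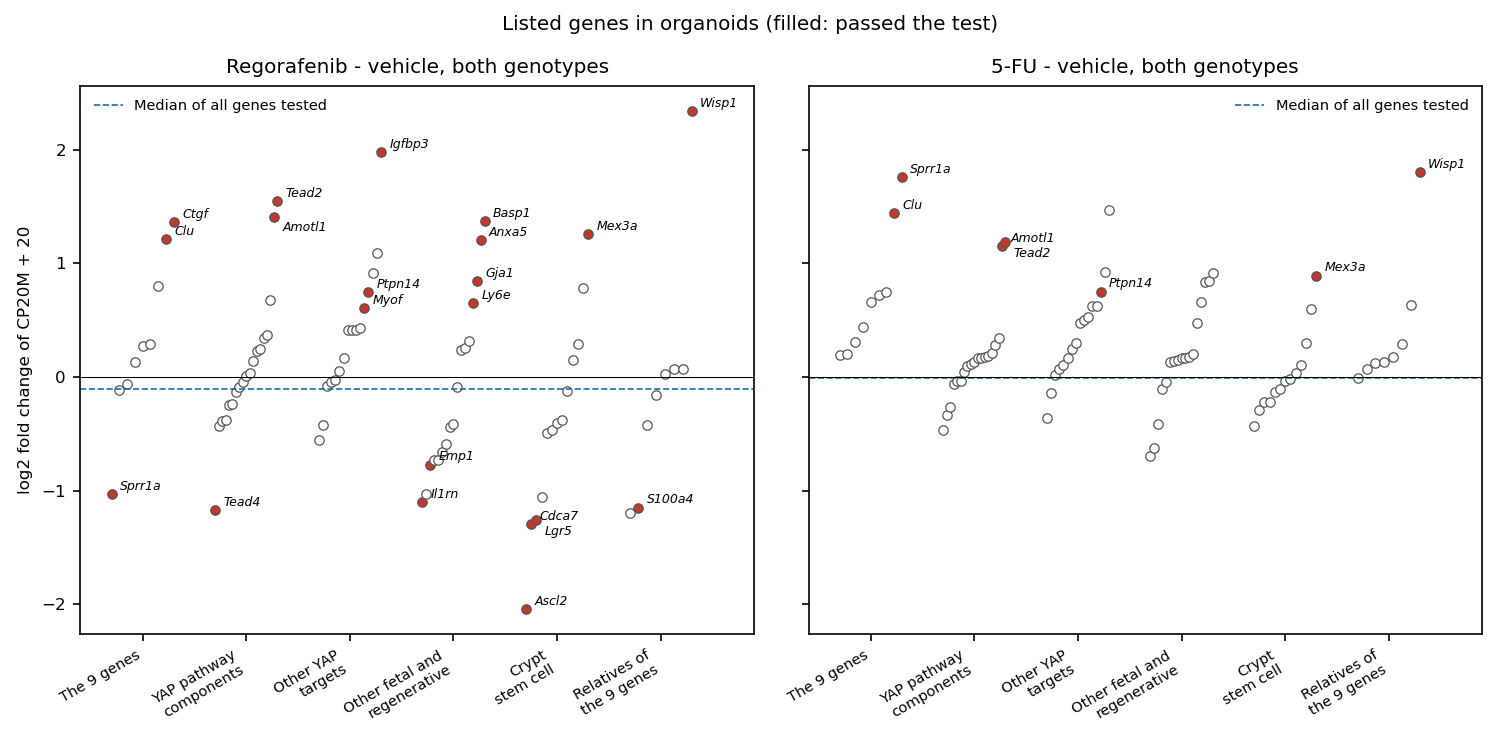
Log2 fold change of CP20M + 20 for tested genes of 6 lists (1 of the other fetal and regenerative genes is not shown) with regorafenib (left) and 5-FU (right) against vehicle in both genotypes; filled points were called, and the dashed line is the median of all genes tested. Called genes lie on both sides of 0 for regorafenib and above 0 for 5-FU, where 1.53% of all genes were called higher and 0.822% lower.

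Macrophage markers were higher at the higher dose in the organoid libraries. The sum of the 6 listed markers was 423 to 573 CP20M in vehicle and 596 to 3247 at 8 µM, the highest in colonoid line M41, which also had the highest Ctgf and Cyr61 of the colonoids at that dose. The bearing of this on Ctgf and Cyr61 was not tested. At 8 µM the defining markers C1qb and Adgre1 were listed at 0 in all 6 libraries, and C1qa in the 3 of tumoroids. Csf1r and Cd68 were the 2 markers at 200 CP20M or more in any of them, and the lysosomal gene Cd68, which other cells also express, went from 48 to 83 CP20M in vehicle colonoids to 211 to 2659 at 8 µM.

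The patterns of the 9 genes over the 24 libraries were compared by Pearson's r of log2 values, which describes libraries that share lines and treatments. Among the 9, the pair with the highest r was Clu and Anxa1 (0.73), followed by Krt7 and S100a6 (0.67), while Ctgf and Cyr61 had 0.40 and Clu and Ctgf 0.15. Over all genes, the most alike to Clu were Il18rap (0.93), Acsbg1 (0.90) and Ddhd1 (0.89), and to Ctgf Sphk1 (0.95), its antisense neighbour Gm15270 (0.92) and Jph1 (0.89). Cyr61 went with Tpm1 (0.84), Ankrd1 (0.80) and Cited2 (0.80), of which Ankrd1 is itself on the list of YAP targets. Sprr1a went with Aldh1a3 (0.89), Lin37 (0.87) and Scin (0.86).

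For the genes that were not called with either drug, the nearest patterns were Dapp1 (0.86), Dlg1 (0.84) and Kdsr (0.84) for Msln, and Cdk7 (0.89), Scoc (0.88) and Clptm1l (0.87) for Ly6a. Anxa1 was most like Slc25a24 (0.90), Fam129b (0.86) and Capg (0.84), Krt7 most like Krt19 (0.81), Ehd1 (0.74) and Gipc1 (0.73), and S100a6 most like Arpc4 (0.96), Msrb1 (0.95) and Fis1 (0.90). Krt19 is another simple-epithelium keratin. The Anxa1 and Krt7 genes are overlapped on the opposite strand by 1500015L24Rik and Gm671.

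In GENCODE M21 on GRCm38, 5 of the 9 genes share a chromosome with another of them. Sprr1a (chr3:92483952-92485895, minus strand) and S100a6 (chr3:90612882-90624181, plus strand) lie in the same region of chromosome 3, and Cyr61 (chr3:145646976-145649981, minus strand) lies further along it. Ly6a (chr15:74994877-74998031, minus strand) and Krt7 (chr15:101411043-101430313, plus strand) are on chromosome 15. Clu is at chr14:65968483-65981547, Ctgf at chr10:24595442-24598683, Anxa1 at chr19:20373428-20390944 and Msln at chr17:25748613-25754378. Values are sums over all exons of each gene.

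Colon fibroblasts, which lack the epithelium, gave a second setting, whose table was normalised apart from that of the organoids so that no test spans both. On the scale per kilobase, vehicle fibroblasts had Ctgf at 422 ± 150 (SD, n = 4), S100a6 at 387 ± 72.7, Anxa1 at 377 ± 26.4 and Cyr61 at 278 ± 78.2, which overlapped within their spread. Ly6a was at 89.3 ± 39.8, and Clu (3.64 ± 3.25), Sprr1a (2.62 ± 1.49), Msln (1.80 ± 1.84) and Krt7 (0.0443 ± 0.0106) were far lower. Cyr61 was thus among the high genes of the set in fibroblasts and among the low ones in organoids. Of the 9 genes 6 passed the filter on low values, and Sprr1a, Krt7 and Msln did not.

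At 10 µM regorafenib Ctgf rose and Ly6a fell, 2 of the 6 tested beside 7.33% of 11032 genes (3.25% higher and 4.09% lower). Ctgf read 30836, 28697, 25376 and 11745 CP20M in vehicle (M3, M3(2), M1(2) and M11) and 59449, 62144 and 52391 at 10 µM, higher without overlap, as were 12.2% of all genes. It rose 2.55-fold (log2 1.35, SE 0.38, adjusted p = 0.0255), and by 1.08 with line as a block, which leaves the vehicle library of M11 without a partner. Ly6a read 3096, 2681, 1921 and 915 in vehicle and 894, 602 and 486 at 10 µM, a change of -1.58 (SE 0.46, adjusted p = 0.0294) and of -1.87 with the block. Both calls were lost when line M3, M3(2) or M1(2) was left out, which leaves 2 libraries at 10 µM. The 6 macrophage markers summed to 703, 388, 594 and 1808 CP20M in these vehicle libraries, to 429, 304, 326 and 746 at 4 µM and to 371, 370 and 342 at 10 µM, lower than vehicle in every line. Of these markers 2 were tested (Csf1r and C1qb) and neither was called, and their part in the values of Ly6a was not tested.

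Cyr61 at 10 µM read 19698, 21060 and 18221 CP20M, above its vehicle values of 12830, 13055, 12502 and 6497. The change of 0.86 (adjusted p = 0.0664) did not pass, and it was called with the block (0.64, adjusted p = 2.41e-05) and without M11 (0.62, adjusted p = 0.000303). Anxa1 changed by 0.45 (SE 0.11, adjusted p = 0.0158), under the 1.5-fold minimum, with 20163 to 23348 in vehicle and 26096 to 32828 at 10 µM. S100a6 and Clu were not called, with 95% intervals of -0.76 to 0.06 and -2.08 to 1.87.

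At 4 µM none of the 6 genes was called, beside 1.02% of all genes, and 2 had an unadjusted p under 0.05 (Ctgf and Ly6a), while edgeR called 0 of the 6. Ctgf read 55837, 42978, 40549 and 24445 CP20M, higher than vehicle in 4 of 4 lines (0.79, adjusted p = 0.328), and Ly6a read 1022, 886, 694 and 567 (-1.32, adjusted p = 0.155). The groups overlapped for Ctgf because line M11 was low in every treatment, and for Ly6a because its vehicle value of 915 was also low. With line as a block Ctgf (adjusted p = 2.81e-06), Ly6a (adjusted p = 7.57e-05) and Clu were called, and without M11 Ctgf and Ly6a were.

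**Figure D4:**
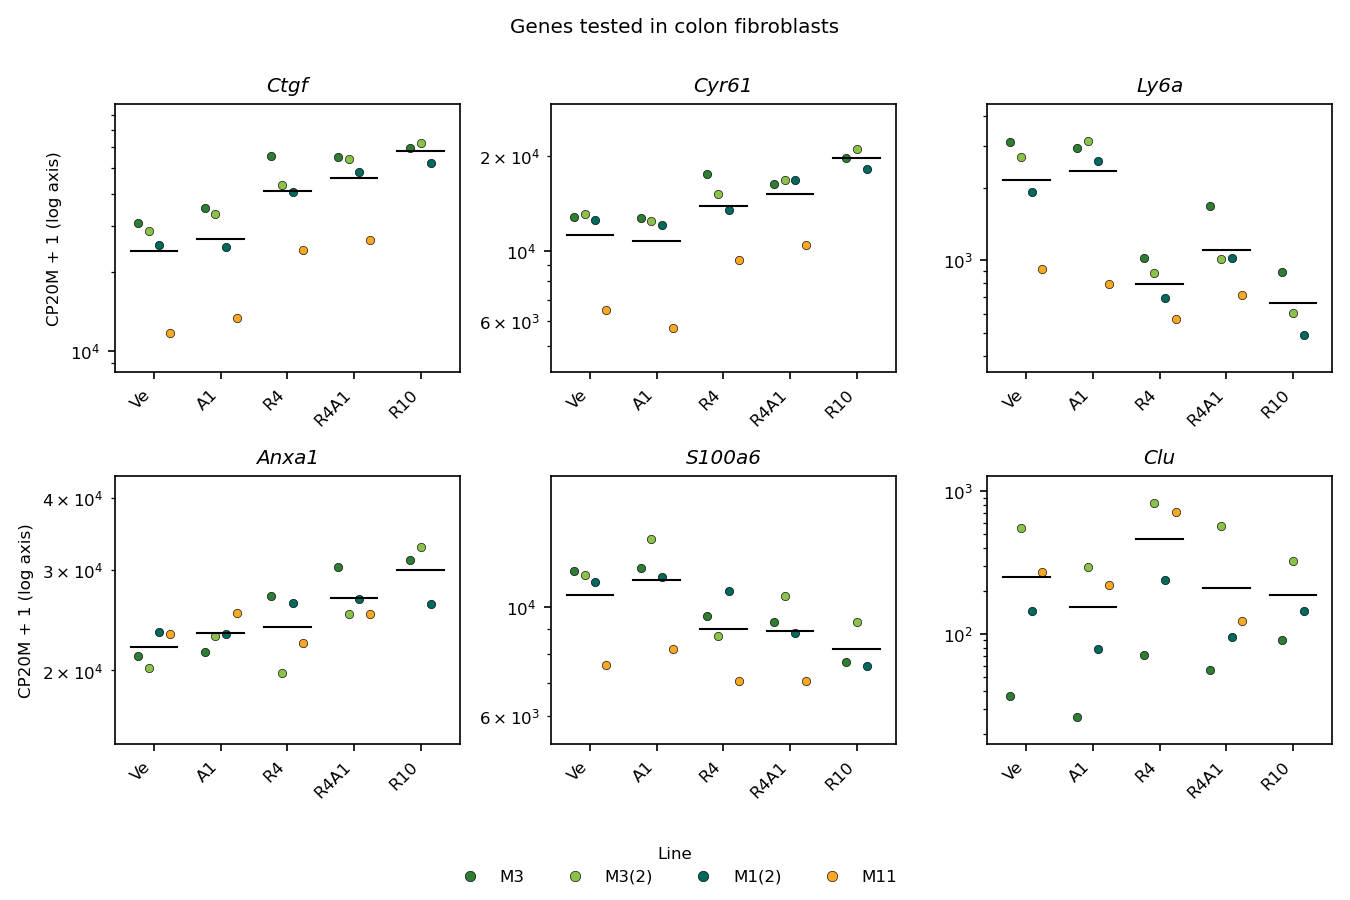
Level of the 6 genes tested in fibroblasts as CP20M + 1 on a log axis (Ve, vehicle; A1, autogramin-2; R4, R10, regorafenib at 4 and 10 µM; R4A1, both agents); points are lines and bars are means of 4 lines, or of 3 for R10. Ctgf and Cyr61 are highest at R10, the mean of Ly6a is lower in each group with regorafenib than in vehicle, and line M11 is lowest for Ctgf and Cyr61 in each treatment it had.

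Autogramin-2 alone gave no called gene among the 6 or among all 11032 (0%) by limma, with 120 at an unadjusted p under 0.05, none of them of the 6, and 0 by edgeR. Ctgf read 35261, 33524, 24899 and 13397 CP20M, which overlapped with the 11745 to 30836 of vehicle, and was higher in 3 of 4 lines. The change of Ctgf was 0.14 (95% interval -0.60 to 0.89), and Cyr61 changed by -0.08 (-0.67 to 0.51). Added to 4 µM regorafenib, autogramin-2 gave 0 of the 6 beside 0.00906% of all genes (1 gene). At an unadjusted p under 0.05 there were 622 genes and none of the 6, and edgeR called 0. Ctgf was then 55231, 54022, 48234 and 26562, and Ly6a 1678, 1010, 1025 and 713, higher than with regorafenib alone in 4 of 4 lines (0.44, 95% interval -0.46 to 1.34).

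Clu in fibroblasts differed more between lines than between treatments. Line M3 read 36 CP20M in vehicle and 70 at 4 µM regorafenib, while M3(2) read 553 and 824, M1(2) 143 and 237 and M11 270 and 707. Endothelial markers (Pecam1, Cdh5 and Kdr) summed to 845, 7043, 1478 and 2065 in these vehicle libraries and to 1313, 20026, 4834 and 6245 at 4 µM, in the same order of lines as Clu in both treatments. With both agents Clu read 55, 569, 94 and 122 (M3, M3(2), M1(2) and M11), lower than with regorafenib alone in 4 of 4 lines. That change was -1.08 (adjusted p = 0.956, and 0.0439 with line as a block). The endothelial sums with both agents were 1529, 12257, 1460 and 1452, which is not the order of Clu. With autogramin-2 alone Clu was also lower than in vehicle in 4 of 4 lines (changes of -0.87 to -0.28) and was not called. The part of endothelial cells in the values of Clu and Ly6a was not tested.

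Of the other listed YAP targets, 4 of 19 tested in fibroblasts rose at 10 µM and none fell, beside 3.25% and 4.09% of all genes. The fitted changes of 11 of the 19 were above 0, with a median of 0.48 beside -0.04 for all genes. Those that rose were Fjx1 (2.45, SE 0.22, adjusted p = 3.42e-06), Tgfb2, a TGF-beta ligand (2.09, adjusted p = 6.29e-05), Gadd45b (1.16, adjusted p = 0.000361) and Ccdc80 (1.62, adjusted p = 0.00657). Fjx1 read 105 to 190 CP20M in vehicle, 387 to 520 at 4 µM and 804 to 907 at 10 µM, without overlap between any pair of these. Its vehicle values lay below the filter level of 200 CP20M and those with regorafenib above it. The libraries where Fjx1 is high were thus enough for it to be tested. Of all genes, 2.86% at 4 µM and 12.2% at 10 µM lay above vehicle without overlap. None of the 19 YAP pathway components was called at 10 µM, and Yap1 read 4672 to 6472 in vehicle and 7127 to 8148 at 10 µM. Of 13 other fetal and regenerative genes tested, 1 rose (Anxa3, 0.98) and 3 fell, among them Emp1 (-1.78) and Ly6c1, a relative of Ly6a (-1.22).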

How the data were processed

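Bulk RNA sequencing was analysed for 24 organoid and 19 fibroblast libraries, grouped by the genotype, treatment and line in their labels. For 3 tumoroid libraries (5-FU) the title reads colonoid, whereas genotype and library name gave their group. One M3 fibroblast library whose title gives no line was placed by library name. Of the fibroblast lines, M1(2) and M11 are missing from the study's list. The labels and the methods name different library kits.

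The deposited values are a signal, CP20M, which the authors made by trimming reads (Trimmomatic 0.36), aligning them to GRCm38 (STAR 2.5.3a), counting them per gene (HTSeq 0.9.1) and scaling each library to 20000000. The values are rounded up, and genes of all lengths share 1 step per library, so they are not per kilobase, although a legend says so. Whole reads were recovered from these steps (99.615 to 100% of values whole).

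Values were tested as log2(CP20M + 20) with limma 3.58.1 in R 4.3.3, with 1 coefficient per group and a trended variance, over genes that reached 200 CP20M (10 CPM) in 2 or more libraries (11562 in organoids, 11032 in fibroblasts). A fold change on this scale understates the change of low genes. Benjamini-Hochberg adjustment ran over all genes tested, two-sided, and genes were called at an adjusted p under 0.05 and 1.5-fold (the difference between genotypes at the adjusted p alone). Alternatives were line as a block, edgeR 4.0.16 on whole reads, TMM factors, pseudocounts of 5 and 100, no filter, the vehicle and regorafenib libraries alone, the thresholds of the study, and leaving out each line or the library with the fewest reads. Libraries of 1 line come from 1 animal and are paired. Deviations from group means had a mean correlation of 0.50 within lines (0.01 to 0.89, 36 pairs) and -0.25 between lines in organoids, and of 0.72 (0.34 to 0.95) and -0.23 in fibroblasts. No pair of libraries of 1 group agreed within sampling noise. P-values of the main fit rest on the spread between the lines within each group. They pool it over groups as if the libraries of 1 line were independent, which they are not.

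On simulated data for regorafenib in organoids (11135 genes), limma recovered 78.4% of 2-fold and 100% of 4-fold changes, and for 10 µM in fibroblasts (11048 genes) 25.8% and 99%, with 13 and 6 false calls. The simulated libraries were independent, with a single dispersion for all genes and no line effect, so these rates need not hold for the real libraries. All 9 genes were named throughout, with at most the 4 genes of smallest adjusted p from each other list per comparison and the 3 nearest patterns per gene. The members and lists were chosen with earlier results of these data known. Lats2 matched 2 rows and was left out. A listed gene is not reported here by name.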

Additional observations from a re-analysis of the deposited data

Results flagged for a closer look

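In the groups of 4 fibroblast lines, a single library stood far from the other 3 (Dixon's ratio over the 95% limit) in 5 of 36 groups tested. Chance gives about 1 in 20 where groups are independent. These groups share the same 4 lines, so the count cannot be set against that share. All 5 were libraries of line M11. Cyr61 read 6497 CP20M in M11 with vehicle, 5701 with autogramin-2 and 10463 with autogramin-2 and 4 µM regorafenib, with ratios of 0.938, 0.931 and 0.938. Ly6a read 798 with autogramin-2 (ratio 0.859), and S100a6 read 7617 in vehicle (ratio 0.882). M11 has no library at 10 µM, so its vehicle values enter that comparison without a partner.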

How the results depend on the processing

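Of the 96 fitted changes of the 9 genes, the 33 with an unadjusted p under 0.05 kept their sign in every alternative run, and 24 of the other 63 changed sign in at least one. With line as a replicate block, these counts of called genes moved: tumoroids to 2, 8 against 4 µM to 2, 5-FU to 4, regorafenib against 5-FU to 2, fibroblasts at 4 µM to 3 and autogramin-2 added to regorafenib to 1 (Clu). The block also added calls of Cyr61 for regorafenib in organoids, in colonoids and in fibroblasts at 10 µM, and changed no other call of the 9 genes. No paired analysis was possible because each line has 1 genotype, for tumoroids against colonoids. edgeR called 2 between doses and 3 between genotypes, TMM factors called 2 in each of 8 against 4 µM, regorafenib against 5-FU and the genotypes, and a pseudocount of 100 called 0 between doses and 0 between genotypes. Without a filter, and with the vehicle and regorafenib libraries alone, the genotype count was 0. Without the library with the fewest reads the counts were 2 between doses, 2 for regorafenib against 5-FU, 3 between genotypes and 3 for 5-FU, where Msln was added. The thresholds of the study left 1 in colonoids, 0 in tumoroids and 0 between genotypes. For 5-FU in colonoids alone, added after seeing the data, the count was 0. The causes were not tested.

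Leaving out each line gave 2 to 4 called genes for regorafenib in organoids and in colonoids, 0 to 1 in tumoroids, 0 to 1 between doses, 1 to 2 for 5-FU, 1 to 2 for regorafenib against 5-FU, 0 to 2 between genotypes, 0 to 2 in fibroblasts at 4 µM, 0 to 3 at 10 µM, and 0 for autogramin-2 in either setting and for the difference between genotypes. Over all genes, the 98 called between doses became 387 with the block, 167 by edgeR and 57 without a filter, the 272 of 5-FU became 584, 427 and 153, the 900 of tumoroids became 1422 with the block, the 783 of regorafenib against 5-FU 1174 with the block, the 113 and 809 of fibroblasts at 4 and 10 µM 797 and 1519, the 1 of autogramin-2 added to regorafenib 158 and the 0 of the difference between genotypes 7. Without the library of few reads, 1441 genes were called in tumoroids, 169 between doses, 493 for 5-FU and 785 (from 238) between genotypes, for which edgeR called 374 and the vehicle and regorafenib libraries alone 157. Leaving out each line gave 4 to 89 genes between doses, 26 to 255 for 5-FU, 15 to 360 between genotypes, 220 to 1387 in tumoroids, 1070 to 1679 in colonoids, 413 to 669 for regorafenib against 5-FU, 28 to 317 in fibroblasts at 4 µM and 358 to 1118 at 10 µM. The study's thresholds left 786 of 1949 for regorafenib in organoids, 286 of 1685 in colonoids, 60 in tumoroids and 46 between genotypes. TMM factors moved the median change in colonoids from -0.15 to -0.04, and the split of higher and lower genes from 656 and 1029 to 952 and 844, from 292 and 491 to 421 and 415 for regorafenib against 5-FU, from 358 and 451 to 430 and 384 in fibroblasts at 10 µM, and from 50 and 48 to 52 and 101 between doses. Depth limits Sprr1a at 8 µM, with 6 to 22 reads per library.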
